A study of Mus musculus with 9 samples.

Results

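The genes described here are 9 members of the complement system: C3, C1qa, C1qb, C1qc, C4b, Cfb, Cfi, C3ar1 and C5ar1. They were chosen by name, as classical, alternative and regulator genes of complement and their receptors. All 9 were found among the 55385 genes of the expression table, and all 9 were among the 21392 genes that had enough counts to be tested. The study gave the flavonoid pectolinarigenin (PEC) to mice with hyperuricemic nephropathy (HN), a kidney injury driven by excess uric acid, and sequenced poly(A) RNA of kidneys. The comparisons are HN with Control, which addresses what the injury changes, PEC with HN, which addresses what the treatment changes, and PEC with Control. The HN libraries enter both of the first comparisons and the Control libraries enter both comparisons with Control, so these comparisons are not independent of each other.

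All mice were male C57BL/6 animals, substrain C57BL/6J, aged 8 to 10 weeks, kept in groups of 8 in the study, and 3 libraries per group were analysed here. Control mice were given none of the agents below. HN mice were given adenine at 0.16 g/kg and potassium oxonate at 2.4 g/kg for 4 weeks. PEC mice were given the same agents together with PEC at 25 mg/kg. The dose of the sequenced PEC mice was taken from a figure legend of the study, since the labels name the compound and no dose. The titles of the Control libraries speak of HN mice, while their disease state is given as control; the disease state was used. The libraries were Control 2, 4 and 5, HN 4, 8 and 12, and PEC 1, 2 and 3, named by group and replicate number, and values below follow this order. The labels list them as separate samples and say no more of their origin, so each p measures the spread between these samples.

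Total counts ran from 57714111 in PEC 3 to 81069646 in HN 8, with a median of 74397038. Replicates differed far beyond counting noise, as chi-square over its degrees of freedom ran from 62.8 to 212 in the 9 pairs, so no replicate was a copy of another. The first principal component of the libraries held 40.5% of the variance and set Control apart, and the second held 27.1% and set HN apart from PEC. Kidney genes were abundant in all 9 libraries. The gene said to lead a marker list is the most abundant by its mean over all 9 libraries, and need not lead in each group. The 8 proximal tubule markers, led by Slc27a2, summed to 2693 ± 73.1 FPKM in Control, against 890.2 ± 33.6 in HN and 1949 ± 428 in PEC (SD, n = 3). FPKM is the number of fragments per kilobase of transcript, scaled to the total of the library. By the rule for calls given below, 7 of these markers were called lower in HN than in Control and 7 were called higher in PEC than in HN. The 6 markers of other nephron segments and podocytes, led by Umod, summed to 1383 ± 149, 1637 ± 113 and 1479 ± 31.3 FPKM (SD, n = 3). Of these, 3 were called lower in HN than in Control and 1 was called higher in PEC than in HN.

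Some libraries and groups stood apart in their makeup. The 4 adipocyte markers, led by Cfd, summed to 13.98, 0.19 and 0.05 FPKM in Control 2, 4 and 5, to 1.28, 0.08 and 44.26 in HN 4, 8 and 12, and to 0.04, 0.49 and 392.72 in PEC 1, 2 and 3. Adipoq and Plin1 were at 0 in Control 4, Control 5, HN 8 and PEC 2, and none of the 3 markers tested was called in any comparison. These markers were thus higher in PEC 3, HN 12 and Control 2 than in the other libraries of their group. For the complement members, results that change without these libraries are given both ways. Such values are not given for single genes of the other lists, so their dependence on these libraries is not known here. The protocol text in the labels speaks of an adipose type, while the tissue is given as kidney, and the origin of this RNA was not tested. Ribosomal RNA took 0.296%, 1.72% and 0.302% of the counts in PEC 1, 2 and 3 and at most 0.00419% in any other library. Over all tested genes the fold change of PEC against HN had a Spearman rho of -0.303 with transcript length and 0.170 with GC content. In HN against Control these were 0.0848 and 0.0380. A technical difference of all PEC libraries cannot be told apart from the treatment here, which holds for every comparison with PEC below. Mitochondrial genes took 14.2% ± 1.82 of the counts in Control, 6.19% ± 0.164 in HN and 12.3% ± 1.77 in PEC (SD, n = 3). The FPKM values are scaled to the total count. With total-count scaling the median log2 fold change of all tested genes was 0.56 for HN against Control, -0.21 for PEC against HN and 0.40 for PEC against Control. With TMM scaling, which aligns the bulk of the genes and was used for the tests, these medians were -0.00, -0.02 and 0.04. They were 0.35, -0.19 and 0.19 by limma on log2(FPKM + 1), and 0.47, -0.25 and 0.26 on log2(FPKM + 0.1). FPKM levels are therefore given as measured, and fold changes and tests come from edgeR with TMM. Markers of liver and adrenal gland were checked as well. The 12 hepatocyte markers summed to 77.2 ± 27.5, 258.6 ± 61.1 and 287.9 ± 16.5 FPKM for Control, HN and PEC (SD, n = 3). The fibrinogen chain Fgg was the most abundant of them over all 9 libraries and not in Control, and Ahsg was at 0 in all Control libraries. The fibrinogen chains Fga, Fgb and Fgg averaged 13.7, 0.51 and 4.2 FPKM in Control and 74.25, 13.19 and 107.41 in HN. Alb, Apoa2, Apoc3 and F2 were called lower in HN than in Control, Alb at 0.55 against 1.9 FPKM on average. The rise of the sum is therefore not one of the list as a whole. The 6 adrenal cortex markers, led by Star, summed to 0.697, 1.71 and 1.29 FPKM on average, with Cyp11b2 at 0 in all 9 libraries, and none of the 2 that could be tested was called in HN against Control or in PEC against HN. Star was called higher in PEC than in Control, by 0.62 on the log2 scale (adjusted p 0.0476).

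Complement is a cascade of plasma proteins that tags microbes, immune complexes and damaged cells. The classical pathway starts when C1q binds its target and its partner proteases C1r and C1s are activated, of which C1s cleaves C4 and C2, the alternative pathway amplifies through factor B, and all routes meet at C3, whose fragments mark surfaces and signal to cells through receptors. Most plasma complement is made in the liver, while C1q is made mainly by macrophages, and injured kidney epithelium is known to make C3 locally.

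A gene was called changed at a fold change of at least 1.5 with a p of at most 0.05 in edgeR after Benjamini-Hochberg adjustment over all tested genes. In HN against Control 8 of the 9 members were called higher, against 17.7% of all tested genes, and 0 were called lower, against 14.7%. In PEC against HN 6 members were called lower, against 15.3% of all tested genes, and 0 were called higher, against 13.4%. The count of 6 was 3 when HN 12 or PEC 2 was left out. In PEC against Control 7 members were called higher, against 18.9% of all tested genes, and 0 were called lower, against 17.4%. DESeq2 and an unadjusted p of at most 0.05 in edgeR also gave 0 members for each of these counts of 0. The median log2 fold change of the 9 members was 3.73, -0.81 and 2.55 in the 3 comparisons, beside -0.00, -0.02 and 0.04 for all tested genes. With total-count scaling the calls of all genes shifted from 54.5% higher to 85.7% higher in HN against Control, from 46.8% to 29.6% in PEC against HN and from 52.1% to 76.6% in PEC against Control. By limma on log2(FPKM + 1) these shares were 81.9%, 28.6% and 70.7%, and by limma on log2(FPKM + 0.1) they were 83.2%, 28.4% and 70.9%. With length dependence removed and library means set equal they were 40.9%, 54.8% and 42.6%, and with GC content removed as well 40.6%, 54.4% and 41.5%. In FPKM all 9 members lay higher in every HN library than in any Control library, as did 52.2% of all tested genes, and 0 lay lower, against 10.8%. Between PEC and HN, 6 members lay lower in every PEC library, against 38.1% of all tested genes, and 1 lay higher, against 18%. Between PEC and Control, 8 members lay higher in every PEC library, against 40.9%, and 0 lay lower, against 17.3%. With 3 against 3 libraries, an exact permutation test of a single gene cannot give a p below 0.10, so the tests rest on the spread shared over genes.

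**Figure D1:**
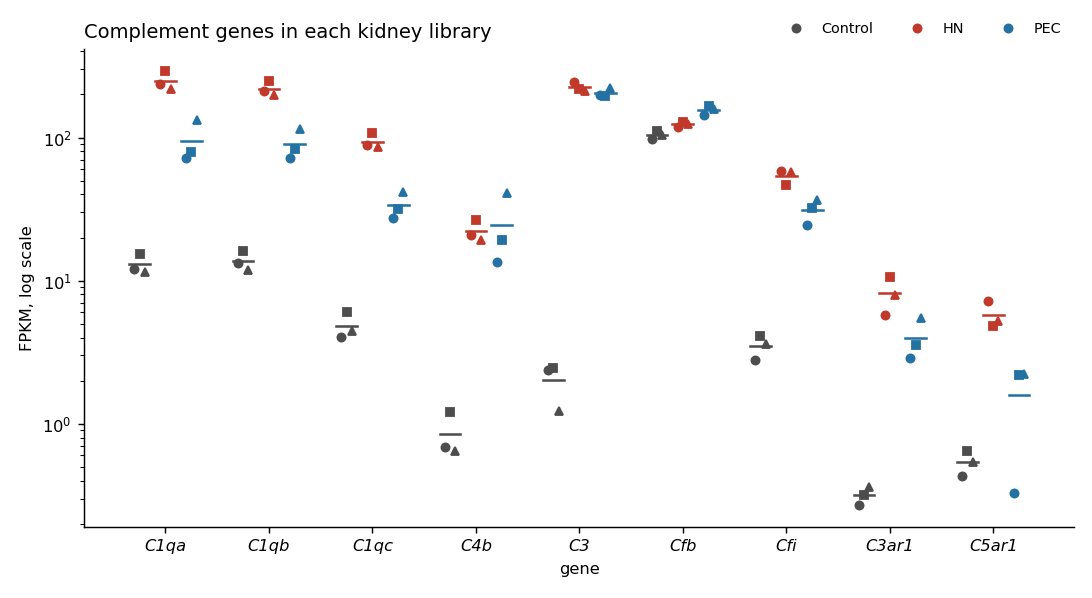
FPKM of each of the 9 complement genes on a log axis. Each point is 1 library, circles, squares and triangles are the replicates of a group in ascending number, and horizontal bars are group means. C3 lay between 1.23 and 2.47 FPKM in Control and between 195.1 and 242.95 FPKM in HN and PEC, while Cfb stayed between 97.84 and 165.38 FPKM throughout.

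The order of the 9 members changed between the groups. In Control the order by mean FPKM was Cfb, C1qb, C1qa, C1qc, Cfi, C3, C4b, C5ar1 and C3ar1. Cfb alone stood far above the rest, and C3 was only 9838th of the 21392 tested genes. C1qb and C1qa overlapped, as did C1qc and Cfi, and C4b and C5ar1 met at 0.64 FPKM. In HN the order was C1qa, C3, C1qb, Cfb, C1qc, Cfi, C4b, C3ar1 and C5ar1. The first 3 overlapped across libraries, as did the last 2, and C3 was 132nd of all tested genes. In PEC the order was C3, Cfb, C1qa, C1qb, C1qc, Cfi, C4b, C3ar1 and C5ar1. C3 and Cfb did not overlap with each other in PEC, while C1qa and C1qb overlapped, as did C1qc, Cfi and C4b.

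**Figure D2:**
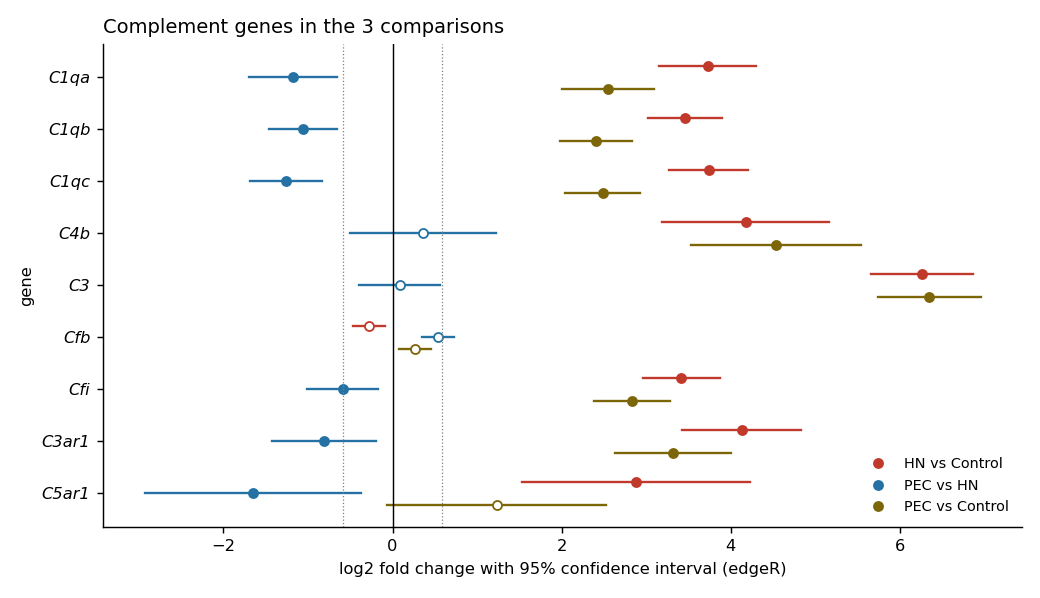
Log2 fold change of each member with its 95% confidence interval from edgeR, with 3 libraries per group. Filled points passed both thresholds of the call, open points did not, and dotted lines mark a fold change of 1.5. C3 stood at 6.27 in HN against Control and 0.09 in PEC against HN, where its sign was negative with total-count scaling and with FPKM; the sign of Cfb in HN against Control, -0.28, was positive in the same settings.

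C1qa, C1qb and C1qc encode the 3 chains from which C1q, the recognition molecule of the classical pathway, is assembled. They lie side by side on the minus strand of chromosome 4 (GRCm38), C1qa (ENSMUSG00000036887) at chr4:136895917-136898803, C1qc (ENSMUSG00000036896) at chr4:136889804-136893065 and C1qb (ENSMUSG00000036905) at chr4:136880129-136886187, with 2851 and 3616 bases between neighbours. The level of C1qa was 12.12, 15.28 and 11.53 FPKM in Control 2, 4 and 5, 237.46, 291.62 and 217.40 in HN 4, 8 and 12, and 71.82, 79.52 and 133.14 in PEC 1, 2 and 3. C1qb stood at 13.22, 16.14 and 11.89 FPKM in Control, against 210.03, 249.44 and 197.67 in HN and 72.49, 83.73 and 115.51 in PEC. C1qc stood at 4.06, 6.02 and 4.43 FPKM in Control, with 88.48, 107.14 and 85.45 in HN and 27.37, 31.86 and 41.93 in PEC. For all 3 chains every HN library was highest, every Control library lowest and every PEC library in between, with no overlap between groups. HN 8 held the highest and PEC 3 the highest value of its group for each chain. In edgeR the log2 fold change of HN against Control was 3.73 ± 0.25 (SE) for C1qa, with an adjusted p of 7.34e-06. It was 3.46 ± 0.19 for C1qb and 3.74 ± 0.21 for C1qc, with adjusted p of 3.27e-06 and 3.18e-06. In PEC against HN the log2 fold change was -1.17 ± 0.23 (SE) for C1qa, -1.06 ± 0.18 for C1qb and -1.26 ± 0.19 for C1qc, with adjusted p of 0.00363, 0.00173 and 0.000889. PEC remained above Control by 2.55, 2.41 and 2.49 on the log2 scale, with adjusted p of 4.77e-05, 2.00e-05 and 2.17e-05. These calls held in all 24 alternative settings that were run. In bulk kidney RNA, fewer cells of a type and less RNA per cell cannot be told apart.

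The macrophage markers moved with C1q. The 14 markers, of which Lyz2 was the most abundant and none was at 0 in any library, summed to 53.25, 59.53 and 52.27 FPKM in Control, against 877.59, 854.86 and 795.87 in HN and 348.85, 357.71 and 419.35 in PEC. In HN against Control 12 of the 14 were called higher and 1, Mertk, lower. Of the same 14, 9 were called lower in PEC than in HN and 5 were not called. The 3 C1q chains summed to 0.533 to 0.629 of the marker sum in Control, 0.611 to 0.758 in HN and 0.492 to 0.693 in PEC, ranges that overlap between all groups. Lyz2 alone averaged 14.5, 557.1 and 226.6 FPKM in Control, HN and PEC, beside mean sums of 55.0, 842.8 and 375.3. It was thus most of the sum in HN and PEC and not in Control, and this ratio does not describe the other markers. Set against Csf1r alone, the receptor of the macrophage growth factor, the C1q sum was 3.92 to 5.34 in Control, 17.4 to 23.1 in HN and 11.4 to 17.2 in PEC. The part of macrophage number in the C1q values was not tested.

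The 3 chains did not keep exactly the same proportions. The ratio of C1qa to C1qb in FPKM was 0.917 to 0.970 in Control, 1.10 to 1.17 in HN and 0.950 to 1.153 in PEC, so HN and Control did not overlap. The ratio of C1qc to C1qb was 0.307 to 0.373 in Control, 0.421 to 0.432 in HN and 0.363 to 0.381 in PEC, with HN above both other groups. C1qa and C1qb have short transcripts, of 1152 and 1205 bases by the count and FPKM of the table, and C1qa has a GC content of 59.5%, above 95.3% of tested genes. All ratios given here and below were chosen after the values had been seen, and their differences were not tested.

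The promoters of the members were looked up because 8 of the 9 rose together in HN. RefSeq sequences (GRCm38.p6) ran from 250 bases before to 50 bases after the gene start in RefSeq. They were matched for 5 of the 9 members, C3, C1qb, C1qc, C3ar1 and C5ar1, and C1qa, C4b, Cfb and Cfi were not among them. By these windows the start in RefSeq equals that of the coordinates given here for C3 and differs for the others. For C1qc, C3ar1 and C5ar1 it lies inside the gene as given here. Each sequence was searched on both strands for TTCNNNGAA (the GAS element), GAAANNGAA (an interferon response element without its last base), GGNNTTNCC (a loose kappa B element), TTGCNNAA (a C/EBP type element) and TATAAA (the TATA box). Of 32851 promoters of the same length these letters were found in 8.30%, 8.56%, 15.96%, 10.8% and 13.6%. The promoters of C1qb and C1qc, both on the minus strand, are shown because these neighbours moved together; neither held any of the 5 motifs, which says only that these letters are not in this window. Their GC content was 56.3% and 53.3%, beside a median of 52.7% over all promoters.
C1qb, chr4:136886151-136886450, minus strand: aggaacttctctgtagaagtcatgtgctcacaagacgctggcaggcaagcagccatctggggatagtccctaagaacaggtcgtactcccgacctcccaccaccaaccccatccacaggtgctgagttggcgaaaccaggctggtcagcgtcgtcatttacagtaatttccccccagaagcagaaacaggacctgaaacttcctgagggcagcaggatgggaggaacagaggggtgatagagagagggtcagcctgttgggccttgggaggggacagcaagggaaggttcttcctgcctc
C1qc, chr4:136892865-136893164, minus strand: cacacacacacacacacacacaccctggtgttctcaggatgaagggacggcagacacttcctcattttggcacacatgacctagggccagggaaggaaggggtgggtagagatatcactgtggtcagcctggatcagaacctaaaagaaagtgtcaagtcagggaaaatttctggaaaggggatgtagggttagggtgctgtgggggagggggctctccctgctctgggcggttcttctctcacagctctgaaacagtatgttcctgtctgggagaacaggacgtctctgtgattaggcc

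C4b (ENSMUSG00000073418, minus strand, chr17:34728380-34743882 in GRCm38) encodes complement C4, which C1s cleaves to carry the classical pathway on to C3. It stood at 0.69, 1.21 and 0.64 FPKM in Control 2, 4 and 5, 20.86, 26.41 and 19.19 in HN 4, 8 and 12, and 13.58, 19.11 and 40.81 in PEC 1, 2 and 3. HN and PEC libraries all lay above Control. PEC overlapped with HN, with PEC 1 and PEC 2 below every HN library and PEC 3 above every one. The log2 fold change was 4.18 ± 0.44 (SE) in HN against Control and 4.54 ± 0.44 in PEC against Control, with adjusted p of 7.37e-05 and 5.80e-05 in edgeR. For PEC against HN it was 0.36 with a 95% confidence interval of -0.50 to 1.22 and an adjusted p of 0.491. Without PEC 3, the library with the highest adipocyte markers, this value was -0.20 (adjusted p 0.605), and without all 3 libraries with adipocyte markers it was -0.31 (adjusted p 0.472), in a range of adjusted p from 0.187 to 0.998 over all settings. Of the 50-base words of C4b, 34.6% also occur in its neighbour C4a, 65209 bases away, so counts of the pair could be split between them and the value of C4b is uncertain to that extent. C4a itself was listed at 0.05 to 0.79 FPKM.

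C3 (ENSMUSG00000024164, minus strand, chr17:57203970-57228136) encodes the central protein of the cascade. Its level was 2.38, 2.47 and 1.23 FPKM in Control 2, 4 and 5, 242.95, 219.77 and 210.23 in HN 4, 8 and 12, and 197.84, 195.10 and 222.18 in PEC 1, 2 and 3. All HN and PEC libraries lay far above Control, and HN and PEC overlapped, PEC 3 being above HN 8 and HN 12. In counts, C3 stood at 1013, 1044 and 540 in Control 2, 4 and 5 and at 72868 or more in every HN and PEC library. The log2 fold change of HN against Control was 6.27 ± 0.27 (SE), with a 95% confidence interval of 5.66 to 6.87 and an adjusted p of 1.27e-06 in edgeR, which is a fold change of 77.0. The ratio of the FPKM means, which are scaled to the total count, was 111. PEC against Control gave 6.35 ± 0.27 (SE), with an adjusted p of 2.12e-06. In PEC against HN the log2 fold change was 0.09, with a 95% confidence interval of -0.39 to 0.56 and an adjusted p of 0.783, so no difference was detected within these bounds. Its sign was negative with total-count scaling (-0.11), with limma on FPKM (-0.13) and without the 3 libraries with adipocyte markers (-0.01). The mean level of C3 was 2.03 ± 0.691, 224.3 ± 16.8 and 205.0 ± 14.9 FPKM for Control, HN and PEC (SD, n = 3), at ranks 9838, 132 and 174 of all tested genes. The C1q sum was 12.4 to 22.6 times C3 in Control, 2.21 to 2.95 times in HN and 0.868 to 1.31 times in PEC.

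The promoter of C3, on the minus strand, is shown because C3 had the largest fold change of the 9 members. Capitals mark 2 matches on the strand of the gene. TTGCGAAA, a match of TTGCNNAA, begins 45 bases before the start, and TATAAA begins at base 15 counted from the start. A match is a description and not evidence of a bound site, and the matches do not overlap. C3ar1 held GGNNTTNCC on the strand opposite to the gene 14 bases before its start and TATAAA on the strand of the gene 235 bases before it. C5ar1 held GAAANNGAA on the strand opposite to the gene 66 bases before its start in RefSeq. This match lies inside the gene by the coordinates given here for C5ar1.
C3, chr17:57228087-57228386, minus strand: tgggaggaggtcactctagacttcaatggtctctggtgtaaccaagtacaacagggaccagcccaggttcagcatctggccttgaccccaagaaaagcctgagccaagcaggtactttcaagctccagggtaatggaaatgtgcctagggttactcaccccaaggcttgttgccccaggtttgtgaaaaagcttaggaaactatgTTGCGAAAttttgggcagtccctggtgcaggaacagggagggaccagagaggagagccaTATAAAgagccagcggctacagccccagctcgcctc

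The injured tubule markers rose with C3 from Control to HN, while from HN to PEC their sum in FPKM fell and C3 overlapped. The 7 markers, led by Spp1 and with none at 0 in any library, summed to 509.27, 543.29 and 408.42 FPKM in Control, with 12234, 11029 and 11227 in HN and 8420, 8598 and 7126 in PEC. All 7 were called higher in HN and in PEC against Control, and 2, Vcam1 and Sox9, were called lower in PEC against HN. The 12 hepatocyte markers, led by Fgg, summed to 83.37, 101.01 and 47.11 FPKM in Control, against 280.48, 305.73 and 189.63 in HN and 269.18, 300.27 and 294.37 in PEC. Of these 4, Ahsg, Fga, Fgb and Fgg, were called higher in HN against Control, and 4, Alb, Apoa2, Apoc3 and F2, lower. In PEC against HN 8 were called higher. The part of either list in the values of C3 was not tested.

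Cfb (ENSMUSG00000090231, minus strand, chr17:34856374-34862518) encodes factor B, the serine protease of the alternative pathway convertase. It stood at 97.84, 110.77 and 104.71 FPKM in Control 2, 4 and 5, 119.13, 129.07 and 125.34 in HN 4, 8 and 12, and 143.62, 165.38 and 158.98 in PEC 1, 2 and 3. In FPKM the groups did not overlap and rose from Control through HN to PEC, by far less than the other members rose from Control to HN. In edgeR the log2 fold change of HN against Control was -0.28 ± 0.083 (SE), with an adjusted p of 0.0230, and did not reach the fold of the call. Its direction depended on the scaling. With total-count scaling it was 0.28, and with limma on log2(FPKM + 1) and on log2(FPKM + 0.1) it was 0.25. From HN to PEC the log2 fold change was 0.54 ± 0.083 (SE), with an adjusted p of 0.00104, just under the fold of the call, and without PEC 1 it was 0.60 and was called (adjusted p 0.00193). By limma it was 0.50 with length dependence removed and 0.32 with length and GC content dependence removed (adjusted p 0.00163 and 0.0143). In PEC against Control it was 0.26 (adjusted p 0.0285) and 0.62 with total-count scaling (adjusted p 0.000325). With length and GC content dependence removed it was 0.03 by limma (adjusted p 0.772), and its sign was negative when library means were also set equal. Over all settings the adjusted p of Cfb in PEC against Control ran from 0.000325 to 0.829, and in PEC against HN from 4.05e-08 to 0.0170. The table also lists Gm20547, a gene model that shares 6107 bases with Cfb on the same strand and 73.0% of its 50-base words, with 0 counts in all libraries, so the counting may have set reads of the 2 models aside in part.

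Cfi (ENSMUSG00000058952, plus strand, chr3:129835884-129875332) encodes factor I, the protease that inactivates C3b and C4b with the help of cofactors. Its level was 2.77, 4.12 and 3.61 FPKM in Control, with 58.69, 46.59 and 57.22 in HN and 24.57, 31.95 and 36.51 in PEC. All PEC libraries lay between Control and HN, with no overlap. The log2 fold change was 3.42 ± 0.20 (SE) in HN against Control, with an adjusted p of 4.14e-06 in edgeR, and 2.83 ± 0.20 in PEC against Control, with an adjusted p of 1.25e-05. From HN to PEC it was -0.59 ± 0.18 (SE), with an adjusted p of 0.0319, at the edge of the fold of the call. The call was lost without HN 4 (-0.50, adjusted p 0.105), HN 12 (-0.57, adjusted p 0.0808), PEC 1 (-0.45, adjusted p 0.0961) or PEC 2 (-0.61, adjusted p 0.0630), with a filter at a mean FPKM of 1 (-0.56, adjusted p 0.0322), and at a fold of at least 2. Over all settings the adjusted p ran from 0.00405 to 0.105.

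C3ar1 (ENSMUSG00000040552, minus strand, chr6:122847138-122856161) and C5ar1 (ENSMUSG00000049130, minus strand, chr7:16246743-16259540) encode the receptors of the anaphylatoxins C3a and C5a, which attract and activate myeloid cells. C3ar1 stood at 0.27, 0.32 and 0.36 FPKM in Control 2, 4 and 5, 5.76, 10.68 and 7.97 in HN 4, 8 and 12, and 2.89, 3.53 and 5.48 in PEC 1, 2 and 3. All HN libraries lay above all PEC libraries and these above Control, with HN 4 and PEC 3 close to each other. C5ar1 stood at 0.43, 0.64 and 0.54 FPKM in Control, against 7.17, 4.82 and 5.22 in HN and 0.33, 2.19 and 2.21 in PEC. PEC 1 lay below every Control library, while PEC 2 and PEC 3 lay between Control and HN. In edgeR the log2 fold change of HN against Control was 4.13 ± 0.31 (SE) for C3ar1, with an adjusted p of 1.23e-05, and 2.88 ± 0.60 for C5ar1, with an adjusted p of 0.00396. In PEC against HN it was -0.81 ± 0.27 (SE) for C3ar1, with an adjusted p of 0.0408, and -1.65 ± 0.57 for C5ar1, with an adjusted p of 0.0456. In PEC against Control C3ar1 was higher by 3.32 (adjusted p 4.17e-05), and C5ar1 gave 1.23 with a 95% confidence interval of -0.06 to 2.52 and an adjusted p of 0.108.

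Both calls of the receptors in PEC against HN had an adjusted p close to the threshold and were lost in many settings, often at a fold change about as large. The fold change of PEC against HN also fell with transcript length over all tested genes, with a Spearman rho of -0.303 over 21392 genes and no test. That of C3ar1 was lost without Control 4 (-0.81, adjusted p 0.0572), HN 8 (log2 fold change -0.58, adjusted p 0.153), HN 12 (-0.84, adjusted p 0.0781), PEC 1 (-0.63, adjusted p 0.121) or PEC 2 (-0.74, adjusted p 0.111). It was also lost at a fold of at least 2, with only the 2 groups in the fit (adjusted p 0.0658) and after the dependence on transcript length (-0.74, adjusted p 0.0579) or on length and GC content (-0.49, adjusted p 0.181) was removed, or removed with library means set equal (-0.70 and -0.45, adjusted p 0.0584 and 0.193). That of C5ar1 was lost without Control 2, 4 or 5, each at a log2 fold change of -1.65 (adjusted p 0.0594, 0.0618 and 0.0615). It was lost without HN 4 (-1.43, adjusted p 0.129), HN 8 (-1.77, adjusted p 0.0724), HN 12 (-1.73, adjusted p 0.0758) or PEC 2 (-1.96, adjusted p 0.0520). With no filter on low counts and with only the 2 groups in the fit it was lost as well (adjusted p 0.0531 and 0.0815). Without the 3 libraries with adipocyte markers C5ar1 gave -2.03 (adjusted p 0.0973). Over all settings the adjusted p ran from 0.0104 to 0.193 for C3ar1 and from 0.00424 to 0.129 for C5ar1, and the sign was negative in each. C5ar1 in PEC against Control was called without PEC 1 (1.71, adjusted p 0.000928), with DESeq2 (1.25, adjusted p 0.0400) and with total-count scaling (1.59, adjusted p 0.0431), in a range of adjusted p from 0.000928 to 0.538.

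The ratio of C3ar1 to Csf1r in FPKM was 0.0456 to 0.0507 in Control, 0.191 to 0.381 in HN and 0.191 to 0.325 in PEC. That of C5ar1 to Csf1r was 0.0761 to 0.0913, 0.172 to 0.237 and 0.0219 to 0.136. Markers of other leukocytes were low. The 7 neutrophil markers, led by S100a9, summed to 6.79, 12.83 and 4.32 FPKM in Control, with 33.38, 18.53 and 20.88 in HN and 8.84, 10.47 and 28.71 in PEC. Of the 5 that could be tested 2 were called higher in HN and 0 were called in PEC against HN. Ly6g and Mpo were at 0 in all 3 Control libraries, in HN 4, PEC 1 and PEC 2. The 5 T cell markers, led over all 9 libraries by Cd4, though not in Control, summed to 0.83, 1.12 and 1.05 FPKM in Control, against 7.06, 12.15 and 8.64 in HN and 4.27, 5.25 and 5.39 in PEC, with 5 higher in HN and 2 lower in PEC than in HN. The 4 B cell markers, led by Cd79b, summed to 0.41, 0.31 and 0.53 FPKM in Control, with 2.34, 3.34 and 2.78 in HN and 1.87, 1.46 and 1.74 in PEC, with 2 higher in HN and none called in PEC against HN. The part of these cells in the values of the receptors was not tested.

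**Figure D3:**
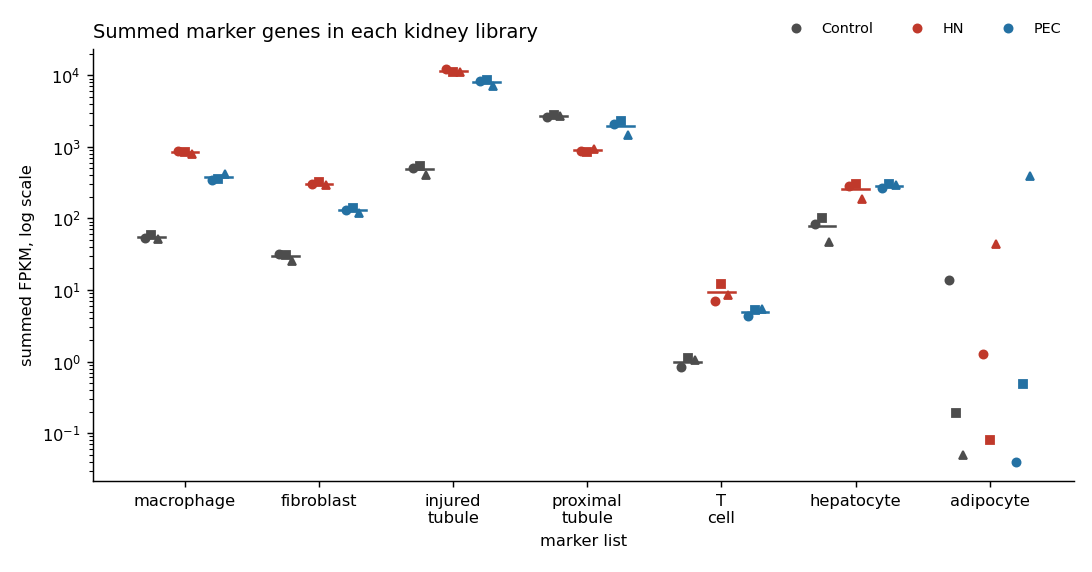
Summed FPKM of marker genes in each library, on a log axis. Each point is 1 library, circles, squares and triangles are the replicates in ascending number, and horizontal bars are group means, left out for the adipocyte list because its libraries differ so widely. The macrophage sum was 52.27 to 59.53 FPKM in Control, 795.87 to 877.59 in HN and 348.85 to 419.35 in PEC, and the adipocyte sum reached 392.72 FPKM in PEC 3.

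A wider list of 46 complement genes was examined beside the 9 members. Of these 39 were tested, and 7 had too few counts, Fcna, Fcnb, Colec10, C8b, Cd55b and Vsig4 among them, with Vsig4 at 0 in every library. In HN against Control 19 were called higher and 6 lower, beside 17.7% and 14.7% of all tested genes. The lower count was 2 by limma on FPKM. In PEC against HN 4 were called higher and 8 lower, beside 13.4% and 15.3%, and in PEC against Control 18 higher and 5 lower, beside 18.9% and 17.4%. Of these shares only the higher ones against Control stood well apart from those of all tested genes. The median log2 fold change of the 39 was 1.14, 0.09 and 1.08, beside -0.00, -0.02 and 0.04 for all tested genes. C1rb and Hc were at 0 in all Control libraries and lay above the first and the last of these medians also when set against 3 counts over the Control libraries together.

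**Figure D4:**
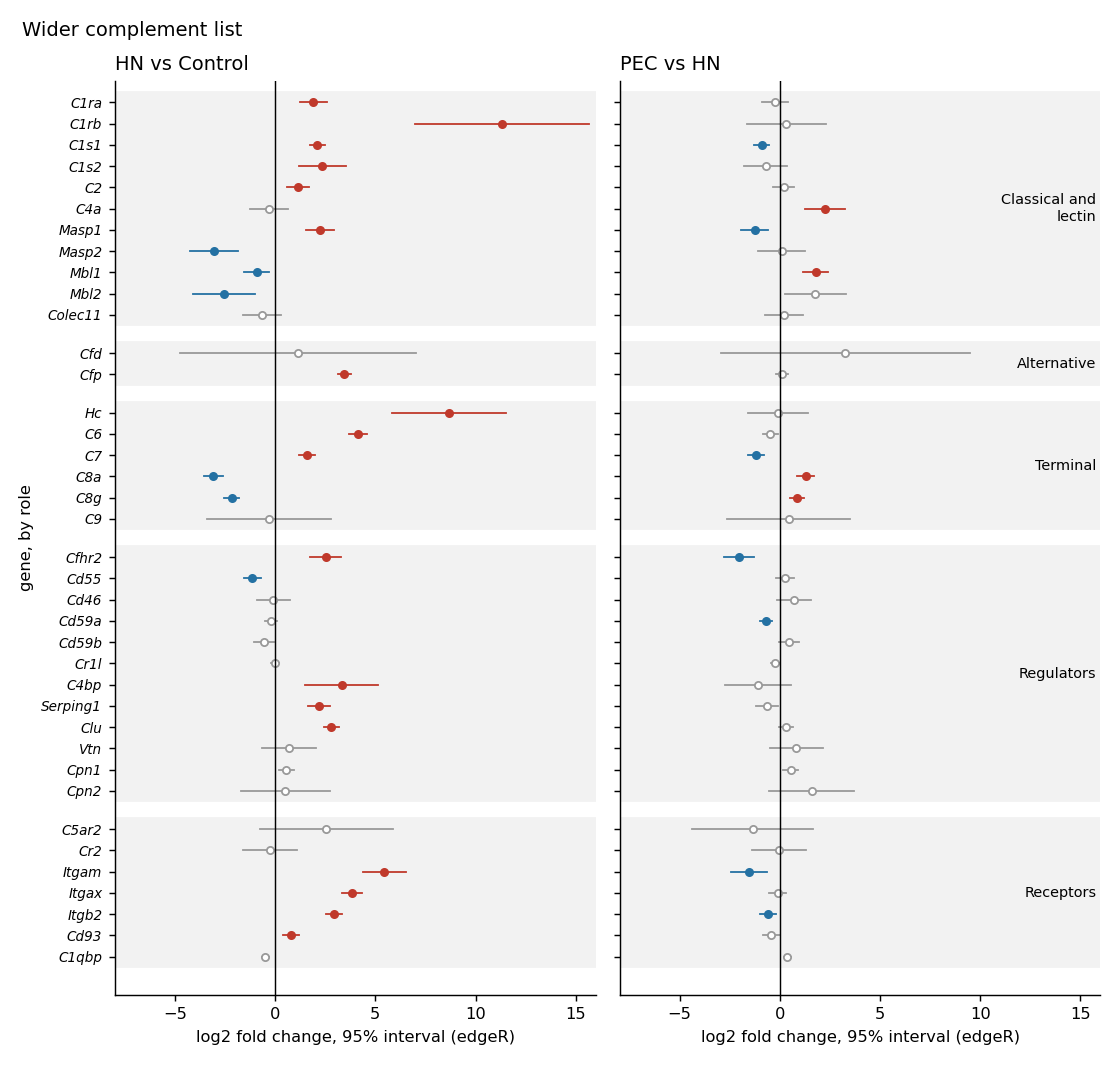
Log2 fold change with its 95% confidence interval (edgeR, 3 libraries per group) of the tested genes of the wider complement list with 1 left out, grouped by role, in 2 panels, HN with Control and PEC with HN. Filled red and blue points were called higher and lower, and open grey points were not called. C1rb and Hc had 0 counts in Control, so their fitted values in HN against Control are no measure of size. Of all 39 tested genes of the list 19 were higher and 6 lower in HN, and 4 were higher and 8 lower in PEC than in HN.

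Of the classical and lectin genes, 11 were tested, of which 6 were called up and 3 down from Control to HN, and 2 were called up and 2 down from HN to PEC. The shares of all tested genes were 17.7% and 14.7%, and then 13.4% and 15.3%. C1s1, the protease that cleaves C4 and C2, stood at 6.73, 7.89 and 6.56 FPKM in Control, against 45.62, 43.94 and 40.79 in HN and 15.61, 18.99 and 24.98 in PEC. HN lay above PEC and PEC above Control without overlap, with log2 fold changes of 2.09 in HN against Control and -0.91 in PEC against HN (adjusted p 1.56e-05 and 0.00209). C2, the partner of C4b in the classical convertase, lies 85 bases from Cfb and stood at 6.91, 9.94 and 5.6 FPKM in Control, with 23.48, 26.20 and 21.48 in HN and 19.68, 18.75 and 31.15 in PEC. It was higher in HN than in Control by 1.14 on the log2 scale (adjusted p 0.00402), and PEC overlapped with HN (0.18, adjusted p 0.572). C1rb, a second copy of the C1r protease gene, had 0 counts in all 3 Control libraries and stood at 3.77, 0.34 and 1.53 FPKM in HN and 0.85, 1.82 and 3.48 in PEC. Its values varied widely within both groups, and no fold change is given. Masp2, a protease of the lectin pathway, fell from 0.40, 0.40 and 0.78 FPKM in Control to 0.12, 0.11 and 0.03 in HN, a log2 fold change of -3.05 (adjusted p 0.00148), and stood at 0.07, 0.11 and 0.07 in PEC. The 4 genes called higher in PEC than in HN are named because they are few. They were C4a, Mbl1, C8a and C8g. The call of C8g was lost by limma with length and GC content dependence removed (0.41, adjusted p 0.0601).

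Both other genes of the alternative pathway were tested. Properdin (Cfp), which stabilises the C3 convertase, stood at 0.70, 0.94 and 0.73 FPKM in Control, against 12.80, 12.23 and 12.60 in HN and 11.33, 10.65 and 12.81 in PEC. HN and PEC overlapped far above Control, with a log2 fold change of 3.44 ± 0.14 (SE) in HN against Control (adjusted p 1.26e-06) and 0.10 in PEC against HN (adjusted p 0.558). Factor D (Cfd), an adipocyte product that cleaves factor B, is itself 1 of the 4 adipocyte markers, with 11.98, 38.13 and 320.14 FPKM in Control 2, HN 12 and PEC 3 and far less in the others, and was not called in any comparison.

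Of the terminal genes, which form the membrane attack complex, 6 were tested. In HN against Control 3 were higher and 2 lower, beside 17.7% and 14.7% of all tested genes. In PEC against HN 2 were higher and 1 lower, beside 13.4% and 15.3%. C7 stood at 3.44, 5.15 and 4.44 FPKM in Control, with 21.50, 19.45 and 15.28 in HN and 6.76, 6.95 and 7.70 in PEC. Its log2 fold change was 1.58 in HN against Control and -1.18 in PEC against HN (adjusted p 0.000118 and 0.000931), and all PEC libraries lay far below HN. C8g moved the other way, from 8.88, 9.40 and 6.95 FPKM in Control to 3, 2.37 and 2.68 in HN and 3.90, 4.39 and 4.05 in PEC, with log2 fold changes of -2.17 and 0.83 (adjusted p 1.04e-05 and 0.00281). With length and GC content dependence removed the second was 0.41 by limma and was not called (adjusted p 0.0601). C8a, chosen after its values were seen, also lay lower in HN than in Control and PEC, at 6.28, 6.70 and 6.21 FPKM in Control, against 0.98, 1.31 and 0.98 in HN and 1.76, 2.16 and 2.95 in PEC. C6 rose from 0.07 FPKM in each Control library to 1.87, 1.80 and 1.65 in HN and stood at 1.14, 1.23 and 0.94 in PEC, with a log2 fold change of 4.13 in HN against Control (adjusted p 2.08e-06). Hc, the gene of C5, had 0 counts in Control and stood at 0.09, 0.15 and 0.12 FPKM in HN and 0.10, 0.15 and 0.03 in PEC. No fold change is given for it. Transcripts of C5, the source of the ligand of C5ar1, were thus at most 0.15 FPKM in any library.

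Of the regulators, 13 were tested, of which 5 were called up and 1 down from Control to HN and 3 were called down from HN to PEC. The shares of all tested genes were 17.7%, 14.7% and 15.3%. Clusterin (Clu), an inhibitor of the terminal complex, stood at 74.34, 72.92 and 50.73 FPKM in Control, with 690.23, 671.08 and 614.33 in HN and 776.29, 751.39 and 590.46 in PEC. HN and PEC overlapped, with log2 fold changes of 2.79 in HN against Control (adjusted p 4.29e-06) and 0.32 in PEC against HN (adjusted p 0.142). Serping1, the C1 inhibitor, stood at 18.62, 25.44 and 19.26 FPKM in Control, against 141.31, 152.69 and 120.99 in HN and 56.65, 63.07 and 110.07 in PEC. PEC 3 lay close to HN, and the log2 fold change was 2.18 in HN against Control (adjusted p 0.000126) and -0.64 in PEC against HN (adjusted p 0.0636). By limma on log2 CPM the second was -0.69 and was called (adjusted p 0.0398). It was also called with length dependence removed (-0.80, adjusted p 0.0232) and with length and GC content dependence removed (-0.99, adjusted p 0.00875). C4bp, which binds C4b, was at 0, 0.03 and 0.03 FPKM in Control and 0.28, 0.33 and 0.26 in HN, a log2 fold change of 3.31 (adjusted p 0.00935), and at 0.14, 0.12 and 0.09 in PEC.

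Of the receptors, 7 were tested, with 4 higher in HN than in Control and 2 lower in PEC than in HN. The shares of all tested genes were 17.7% and 15.3%. Itgam and Itgax encode the alpha chains of the complement receptors CR3 and CR4, and Itgb2 their shared beta chain. Itgam stood at 0.20, 0.27 and 0.09 FPKM in Control, against 15.34, 10.42 and 10.03 in HN and 2.29, 5.51 and 2.80 in PEC, with log2 fold changes of 5.45 in HN against Control and -1.55 in PEC against HN (adjusted p 2.73e-05 and 0.0136). Itgax stood at 0.28, 0.34 and 0.31 FPKM in Control, with 5.48, 8.19 and 5.62 in HN and 3.90, 5.43 and 5.97 in PEC, with log2 fold changes of 3.83 and -0.12 (adjusted p 3.70e-06 and 0.675). The groups of Itgam did not overlap, while PEC and HN overlapped for Itgax. Itgb2 stood at 1.31, 1.32 and 1.42 FPKM in Control, against 14.19, 17.41 and 13.69 in HN and 6.43, 9.38 and 9.96 in PEC, with log2 fold changes of 2.94 and -0.60 (adjusted p 4.91e-06 and 0.0210). C1qbp, a mitochondrial protein that also binds C1q, lay between 26.58 and 34.19 FPKM in all 9 libraries and was not called in any comparison. In edgeR its log2 fold change was -0.49 in HN against Control and 0.37 in PEC against HN (adjusted p 0.000982 and 0.00528). Both were short of the fold of the call. The 8 fibroblast markers, led over all 9 libraries by Col3a1, though not in Control or PEC, and with none at 0, summed to 31.66, 30.84 and 25.66 FPKM in Control, with 299.00, 321.61 and 293.91 in HN and 129.44, 140.46 and 119.81 in PEC, with 8 higher in HN than in Control and 7 lower in PEC than in HN. Their part in the values of C1s1, C7 and Serping1 was not tested.

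Ratios within a library do not depend on its scaling. Cfb stood at 41.1 to 85.1 times C3 in Control, 0.490 to 0.596 in HN and 0.716 to 0.848 in PEC, so C3 passed Cfb in every HN and PEC library. C3 stood at 1.92 to 3.45 times C4b in Control, 8.32 to 11.6 in HN and 5.44 to 14.6 in PEC, where PEC overlapped with HN. C3ar1 stood at 0.5 to 0.667 of C5ar1 in Control, 0.803 to 2.22 in HN and 1.61 to 8.76 in PEC, the last of these in PEC 1.

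**Figure D5:**
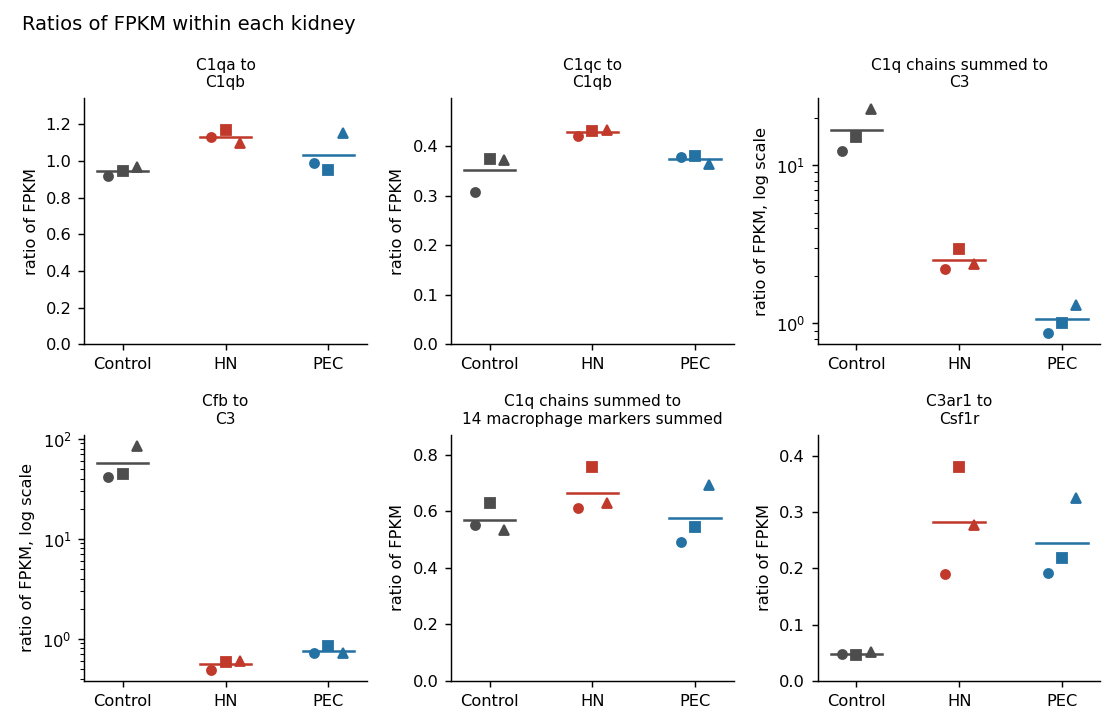
Ratios of FPKM within each library, with a log axis for C1q to C3 and Cfb to C3 and linear axes from 0 for the others. Each point is 1 library, circles, squares and triangles are the replicates in ascending number, and horizontal bars are group means. Cfb to C3 was 41.1 to 85.1 in Control, 0.490 to 0.596 in HN and 0.716 to 0.848 in PEC, without overlap, and the C1q sum relative to 14 macrophage markers overlapped between all groups. That marker sum was mostly Lyz2 in HN and PEC and not in Control.

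The genes whose log2 CPM over the 9 libraries was most like that of C3 were Clic1, Pstpip1, Plscr3, Trpv6 and Lpo, with a Pearson r of 0.999 to 0.996. Clic1, a chloride channel protein, averaged 41.6 ± 3.49, 135.0 ± 2.55 and 117.9 ± 4.43 FPKM in Control, HN and PEC (SD, n = 3). The genes most like the 3 C1q chains were Pltp, Mpeg1, Ctss, Car13 and Lpxn, with a mean Pearson r of 0.998 to 0.994. Ctss, the lysosomal protease cathepsin S, averaged 10.7 ± 1.60, 234.1 ± 49.8 and 99.7 ± 42.0 FPKM (SD, n = 3). Mpeg1, a pore-forming protein of macrophages, averaged 3.60 ± 0.198, 56.4 ± 6.20 and 22.95 ± 6.09 FPKM (SD, n = 3). Among the members themselves r was 0.998 to 0.999 between the C1q chains, 0.980 between C3 and C4b, and 0.606 between C3 and C5ar1. Cfb had r between -0.453 and 0.0555 with the other 8 members. These r over 9 libraries describe the shared steps between 3 groups and were not tested.

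Of 11 known inducers and regulators of complement transcription, 8 were called higher in HN than in Control, against 17.7% of all tested genes, and 3 lower in PEC than in HN, against 15.3%. In PEC against Control 5 were called higher and 1 lower, against 18.9% and 17.4%. Their median log2 fold change was 1.5, -0.54 and 1.22, beside -0.00, -0.02 and 0.04 for all tested genes. Il6, a cytokine that induces acute phase genes, had 0 counts in Control and stood at 0.56, 0.29 and 0.35 FPKM in HN and 0.07, 0.02 and 0.23 in PEC. It lay above the median of the inducers in HN against Control also when set against 3 counts over the Control libraries together, and no fold change is given for it there. From HN to PEC its log2 fold change was -1.66 (adjusted p 0.155). Il1b stood at 0.72, 1.08 and 0.98 FPKM in Control, against 5.89, 8.78 and 7.97 in HN and 2.56, 2.78 and 5.47 in PEC, all PEC libraries lying between the other groups. Its log2 fold change was 2.48 in HN against Control (adjusted p 0.000264) and -0.84 in PEC against HN (adjusted p 0.0541). Tnf had a log2 fold change of 3.50 in HN against Control (adjusted p 0.000438) and -0.31 in PEC against HN (adjusted p 0.601). Cebpb, a transcription factor of the acute phase response, stood at 15.22, 10.96 and 7.64 FPKM in Control, with 44.37, 25.75 and 23.12 in HN and 2.51, 3.63 and 8.16 in PEC. PEC lay far below HN, and the log2 fold change was 0.95 in HN against Control (adjusted p 0.122) and -2.50 in PEC against HN (adjusted p 0.00298). Cebpd, its relative, had log2 fold changes of 2.74 and -2.38 (adjusted p 0.00121 and 0.00320).

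Nfkb1, a subunit of NF-kappa B, stood at 2.35, 2.29 and 1.74 FPKM in Control, against 9.87, 7.95 and 8.23 in HN and 3.80, 4.15 and 3.96 in PEC, with log2 fold changes of 1.5 and -0.91 (adjusted p 2.81e-05 and 0.000708). Rela, its partner, had log2 fold changes of 0.87 and -0.50 (adjusted p 0.000349 and 0.00917), the second short of the fold of the call. Irf1, a factor induced by interferon, stood at 3.84, 4.07 and 2.91 FPKM in Control, with 12.33, 14.32 and 13.22 in HN and 11.53, 12.94 and 17.98 in PEC. HN and PEC overlapped above Control, with log2 fold changes of 1.35 in HN against Control (adjusted p 0.000255) and 0.31 in PEC against HN (adjusted p 0.186). Stat3 had log2 fold changes of 0.97 and -0.54 (adjusted p 0.00432 and 0.0640). Ifng was at most 0.17 FPKM in any library and was not called.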

How the data were processed

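Poly(A) RNA of 9 mouse kidneys was sequenced. The authors deposited 1 table with raw counts per gene. They also deposited FPKM, which the authors computed from those counts with the length of each gene and the sum of the library. The submitters' processing notes name Bowtie 0.12.2 and the builds mm8 and mm9, without their role, while the coordinates of the table equal those of GENCODE M21 (GRCm38) for 51991 of 55144 shared genes. The counting program and its use of strand are not given in the sources used here.

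Counts were tested with edgeR 4.0.16 in R 4.3.3 (filterByExpr, TMM, glmQLFit and glmQLFTest) in 1 fit of the 9 libraries, and p-values were adjusted over 21392 genes. The SE of a log2 fold change is its size divided by the root of F. Alternatives used total-count scaling, DESeq2 1.42.0, limma 3.58.1 on FPKM, other filters and thresholds, fits of 2 groups, removal of length and GC content dependence (splines of 5 df on log2 CPM), and libraries left out. Members and lists were chosen with earlier results of these data known. Besides the members, the text names the 2 most abundant and the 2 most changed genes of each role in the wider list, 5 genes most like C3 and like C1q, leading and absent markers, and 11 inducers. Some genes of these lists are counted and not reported singly here. Genes named outside these rules were chosen after their values were seen. Lists covered macrophages, fibroblasts, injured tubule, proximal tubule, other nephron, neutrophils, T cells, B cells, hepatocytes, adrenal cortex and adipocytes. For genes at 0 in a group no fold change is given. Tables and plots were made with Python 3.11.15, pandas 2.3.3, numpy 2.4.6 and matplotlib 3.10.9.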

Additional observations from a re-analysis of the deposited data

How the results depend on the processing

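The number of complement genes called in HN against Control was 8 in all 24 alternative settings. In PEC against HN it ranged from 3 to 6 when 1 library was left out, beside 6 with all libraries, and was 3 without HN 12 and without PEC 2. In PEC against Control it ranged from 7 to 8 when 1 library was left out. Of all genes, 6141 were called in PEC against HN and 3594 at a fold change of at least 2. In PEC against Control 7784 were called, beside 5102 at a fold change of at least 2 and 5066 by limma on log2(FPKM + 1). With 1 library left out, all genes called ranged from 6143 to 7088 in HN against Control, 5194 to 6260 in PEC against HN and 7086 to 7567 in PEC against Control, and the totals of the wider list stayed within 1.5 times in every setting. Its counts by direction moved more, from 14 to 20 higher and 2 to 8 lower in HN against Control, 2 to 6 higher and 5 to 11 lower in PEC against HN, and 12 to 21 higher and 2 to 5 lower in PEC against Control. Directions that reversed were those of Cfb in HN against Control, 0.28 with total-count scaling and 0.25 by limma on log2(FPKM + 1) and on log2(FPKM + 0.1), and of C3 in PEC against HN, -0.11, -0.13 and -0.13 in the same settings. C3 in PEC against HN was also -0.0132 without the 3 libraries with adipocyte markers, a setting chosen after seeing the data, and C4b -0.31 there, -0.20 without PEC 3 and 0.65 without PEC 1. With 1 library left out, the log2 fold change of PEC against HN ran from -1.48 to -1.01 for C1qa, -1.25 to -0.92 for C1qb, -1.42 to -1.13 for C1qc, 0.03 to 0.17 for C3, 0.50 to 0.60 for Cfb, -0.70 to -0.45 for Cfi, -1.10 to -0.58 for C3ar1 and -1.96 to -1.17 for C5ar1. Removal of length and GC content dependence was first run with library means set equal, which moved the median of all genes in HN against Control to -0.21, and the form that keeps library means replaced it after its values were seen. In the first form Cfb in PEC against Control was -0.15, and in the second it was 0.03. Beyond the scalings' own construction, the cause was not tested. limma on log2 CPM without such removal was also added after seeing the data. No paired analysis was possible because the groups compared share fewer than 2 replicate numbers. With 3 libraries per group, the small differences of C3 and C4b between PEC and HN could not be resolved. That of Cfb, 0.54, had an adjusted p of 0.00104 in edgeR. It was 0.32 by limma with length and GC content dependence removed (adjusted p 0.0143), so its size depended on the processing.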
